A study of Drosophila melanogaster with 2 samples.

Results

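Peaks of the zinc-finger protein Oaz that lay at the shared promoter of a pair of neighbouring genes, transcribed away from each other, numbered 542 of the 2772 peaks on the chromosome arms (19.6%, Wilson 95% interval 18.1 to 21.1). Its binding was mapped in Drosophila melanogaster by sequencing of immunoprecipitated chromatin (ChIP-seq) from entire embryos, collected at 0 to 24 hours of age from the strain Oaz-GFP. These flies carried a transgene, labelled as an insertion that targets Oaz, from which Oaz was expressed as a fusion to eGFP. The labels name no treatment, no other genotype and no promoter for the transgene. The precipitation used an antibody against GFP in the labels' description, while another label field names Oaz as the antibody target. There was 1 group with 2 biological replicates, so no comparison of conditions was possible, and whole embryos of this age range mix all tissues and embryonic stages.

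A peak was taken where its summit lay within 500 bp of the start site of a protein-coding transcript and where the nearest start site had, within 1000 bp upstream of it, a start site of another protein-coding gene on the opposite strand. The list called combined below is the authors' list from both replicates at an irreproducible discovery rate (IDR) of 0.01. That threshold itself depends on signal and its reproducibility. Within the combined list only position chose the peaks, and neither their signal, their replicate support nor their sequence was used further. The signal of a peak is the value that the authors' peak caller gave it, on a scale that the labels do not state. Signals were compared within a list only, and the depth of the libraries is unknown because no read counts were used here. Differences between classes of peaks were not tested, since peaks of the same libraries are not replicates, and the intervals cover counting error only.

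In the compact fly genome many genes are arranged head to head, so that a short stretch of DNA serves as the upstream region of both. Such divergent promoters often belong to genes needed in every cell, and many carry sequence elements bound by the factors DREF, BEAF-32 and M1BP. The stretch between the start sites is usually free of nucleosomes when the genes are active. Oaz has many zinc fingers and is the fly relative of vertebrate ZNF423, a DNA-binding protein with a partner in the EBF family. A peak between start sites cannot be assigned to either gene, and expression was not measured.

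The sequences between the start sites of 5 strongly bound pairs are shown because they hold the whole shared promoter and the summit in a single view. They are from the reference genome, Release 6 (dm6), with 61 bases centred on the summit in capitals and with no annotated exon in the stretch shown.
CG7601/CIA30 (chr3R:29736746-29736964, plus strand): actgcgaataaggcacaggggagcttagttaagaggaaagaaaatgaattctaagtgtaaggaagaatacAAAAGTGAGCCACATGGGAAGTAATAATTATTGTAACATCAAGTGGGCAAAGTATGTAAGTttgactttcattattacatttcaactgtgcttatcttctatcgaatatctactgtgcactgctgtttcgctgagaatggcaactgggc
mRpS10/Art3 (chr3R:15229409-15229664, plus strand): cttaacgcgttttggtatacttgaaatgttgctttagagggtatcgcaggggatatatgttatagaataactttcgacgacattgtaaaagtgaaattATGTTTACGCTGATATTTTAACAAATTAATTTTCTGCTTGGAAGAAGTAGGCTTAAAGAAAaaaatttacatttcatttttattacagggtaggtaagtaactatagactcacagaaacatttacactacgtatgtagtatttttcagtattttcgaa
Tcs5/CHMP2B (chr3L:5139396-5139618, plus strand): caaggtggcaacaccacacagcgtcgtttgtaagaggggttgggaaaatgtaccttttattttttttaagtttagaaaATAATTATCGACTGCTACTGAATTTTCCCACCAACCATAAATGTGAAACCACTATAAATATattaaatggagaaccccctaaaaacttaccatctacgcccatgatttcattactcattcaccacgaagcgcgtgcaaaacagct
CG13390/CG17294 (chr2L:8376798-8377034, plus strand): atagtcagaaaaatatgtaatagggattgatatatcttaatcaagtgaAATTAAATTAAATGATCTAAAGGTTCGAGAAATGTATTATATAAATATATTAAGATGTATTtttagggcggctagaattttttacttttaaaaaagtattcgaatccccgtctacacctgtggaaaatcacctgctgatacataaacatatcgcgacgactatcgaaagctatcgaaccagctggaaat
brm/Arl1 (chr3L:15982870-15983134, plus strand): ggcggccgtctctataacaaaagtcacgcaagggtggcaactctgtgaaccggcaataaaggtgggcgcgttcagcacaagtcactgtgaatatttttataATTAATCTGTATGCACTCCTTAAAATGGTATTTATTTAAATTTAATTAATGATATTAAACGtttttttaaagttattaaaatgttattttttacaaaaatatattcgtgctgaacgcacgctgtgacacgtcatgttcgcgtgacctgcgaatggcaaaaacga
The stretch at the summit was poorer in G and C than the rest of the shared promoter in each of these pairs. GC content was 34.4% in the capitals and 39.2% in the rest at CG7601/CIA30, and 27.9% and 30.8% at mRpS10/Art3. At Tcs5/CHMP2B it was 31.1% in the capitals and 40.7% in the rest, at CG13390/CG17294 16.4% and 35.8%, and at brm/Arl1 19.7% and 41.7%. The same direction was seen in 9 of the 9 pairs, among the 25 strongest, whose intergenic stretch met the limits for printing.

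A second set is shown because 6 of the strongest peaks shared a short sequence beside the summit. Each line runs 5′ to 3′ along the strand that carries CTACGCC, which is in capitals together with the nearest CCCC in the 30 bases before it, where there was one. None of these bases lay in an annotated exon.
Ugalt/eIF2Bbeta (chrX:2703931-2703977, plus strand): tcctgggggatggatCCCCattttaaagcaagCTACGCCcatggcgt
CG5611/Mtl (chr3R:27636072-27636118, minus strand): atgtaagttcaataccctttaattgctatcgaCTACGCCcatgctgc
Tcs5/CHMP2B (chr3L:5139535-5139581, plus strand): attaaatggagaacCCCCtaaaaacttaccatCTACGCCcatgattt
mRpL23/CG9004 (chr3L:2373521-2373567, minus strand): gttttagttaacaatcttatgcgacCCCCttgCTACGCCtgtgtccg
fws/Lamtor3 (chr2L:17481164-17481210, plus strand): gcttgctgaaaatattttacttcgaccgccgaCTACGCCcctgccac
CG3552/CG3437 (chr3L:9457706-9457752, minus strand): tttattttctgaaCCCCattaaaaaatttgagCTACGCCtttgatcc
In these 6 the sequence began 71, 82, 63, 64, 67 and 78 bp past the summit, in the order of the lines and along its own strand. The sequence was noticed after the signals had been seen, so its link with strong peaks is a description of these peaks.

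Divergent promoters held 542 of the 1223 peaks at protein-coding promoters (44.3%, 41.6 to 47.1). The share was 45.01% (388 of 862) in the list of replicate 1 and 41.6% (350 of 841) in that of replicate 2. Of 2640 divergent pairs in the annotation, 506 had such a peak (19.2%, 17.7 to 20.7), where 11.6% of all protein-coding genes had a summit within 500 bp of a start site. In the single-replicate lists the pairs with a peak were 375 (14.2%) for replicate 1 and 333 (12.6%) for replicate 2, beside 8.55% and 7.98% of all genes. Shares of pairs and of genes are in unlike units, and all genes include the paired ones. Counted by gene, a summit lay within 500 bp of a start site for 1055 of 5052 genes in a divergent pair (20.9%, 19.8 to 22.03) and for 563 of 8916 genes without a divergent partner (6.31%, 5.83 to 6.84). The values were 15.7% and 4.50% in replicate 1, and 14.1% and 4.52% in replicate 2. A summit between close start sites counts for both genes of a pair, which raises the first share and not the second.

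How far apart the start sites of a pair lay went along with how often the pair had a peak. Some genes have several start sites, and a pair was placed by the smallest distance among them. A peak was found at 69 of 427 pairs with 1 to 100 bp between the start sites (16.2%, 12.97 to 19.9) and at 42 of 355 pairs with over 100 and up to 200 bp (11.8%, 8.87 to 15.6). It was found at 158 of 542 pairs with over 200 and up to 300 bp (29.2%, 25.5 to 33.1), at 144 of 648 with over 300 and up to 500 bp (22.2%, 19.2 to 25.6) and at 93 of 668 with over 500 and up to 1000 bp (13.9%, 11.5 to 16.8). The share was highest in the class of over 200 and up to 300 bp in both single-replicate lists as well, at 22.1% in replicate 1 and 20.1% in replicate 2.

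The contrast between close and wider pairs was larger where each gene had a single annotated start site, so that the distance is unambiguous. This selection was made after the first values were seen. Among 1246 such pairs, a peak was found at 10 of 159 with 1 to 100 bp (6.29%, 3.45 to 11.2), 6 of 151 with over 100 and up to 200 bp (3.97%, 1.83 to 8.40) and 87 of 307 with over 200 and up to 300 bp (28.3%, 23.6 to 33.6). Pairs with over 300 and up to 500 bp had a peak at 71 of 343 (20.7%, 16.7 to 25.3), and those with over 500 and up to 1000 bp at 41 of 286 (14.3%, 10.7 to 18.9). In replicate 1 the shares were 3.14%, 2.65%, 20.8%, 15.5% and 9.79% in order of distance. In replicate 2 they were 2.52%, 3.31%, 20.8%, 11.95% and 8.39%. The intervals of the 2 closest classes did not overlap that of the class up to 300 bp in any of the 3 lists.

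**Figure D1:**
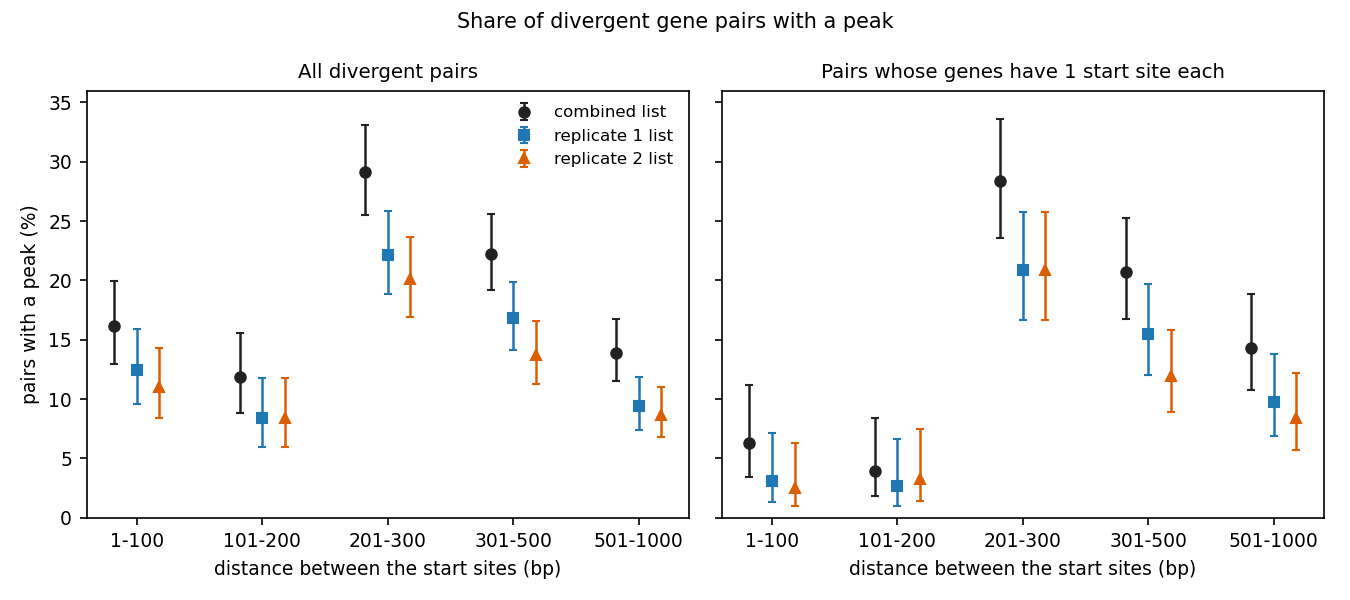
Share of divergent gene pairs with a peak (y axis, percent) by the distance between the start sites (x axis, bp), for all 2640 pairs on the left and for the 1246 pairs whose genes have 1 start site each on the right. Points are the combined list and the list of each replicate, with Wilson 95% intervals; all 3 lists are highest in the class that ends at 300 bp, and on the right the combined list is at 28.3% there and at 3.97% in the class that ends at 200 bp.

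Most summits lay in the stretch between the start sites. This was so for 440 of 542 peaks (81.2%, 77.7 to 84.2), for 84.8% of those in replicate 1 and for 82.6% in replicate 2. The rule admits positions on either side of a start site, so it did not fix this share, although the space between the start sites grows with their distance. A summit between the start sites lies upstream of the nearest one. Most summits at other promoters lay upstream too (upper quartile -75 bp), so an upstream position was not particular to divergent pairs. In pairs with 1 to 100 bp at the start site nearest to the peak, 3 of 44 summits lay between the start sites (6.82%), and the median summit lay 71.5 bp from the nearest start site. With over 100 and up to 200 bp it was 26 of 42 (61.9%), with over 200 and up to 300 bp 148 of 170 (87.1%), with over 300 and up to 500 bp 155 of 164 (94.5%) and with over 500 and up to 1000 bp 108 of 122 (88.5%).

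Above 200 bp, the median distance of summits from a start site changed less than that from the midpoint as the space between start sites widened. With over 100 and up to 200 bp the median summit was 42 bp from the nearest start site (quartiles 24 and 63.5) and 54 bp from the midpoint. In pairs with over 200 and up to 300 bp the median summit was 98.5 bp from the nearest start site (quartiles 66.8 and 117) and 31.5 bp from the midpoint, and 113 of 170 (66.5%) lay within 50 bp of the midpoint. With over 300 and up to 500 bp the median was 111 bp from the start site (quartiles 77.5 and 146) and 78 bp from the midpoint. With over 500 and up to 1000 bp it was 120.0 bp from the start site (quartiles 67.3 and 173) and 229 bp from the midpoint, and 6 of 122 (4.92%) lay within 50 bp of the midpoint. The summits of wide pairs thus lay nearer to 1 of the start sites than to the middle.

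Divergent promoter summits were more tightly placed than those at other promoters. Their median position was 90 bp upstream of the nearest start site (quartiles -124 and -35 bp), against 160 bp upstream (quartiles -267 and -75 bp) for the 681 peaks at other promoters. Of the divergent promoter summits 312 of 542 (57.6%, 53.4 to 61.7) lay 50 to 150 bp upstream, against 181 of 681 at other promoters (26.6%, 23.4 to 30.02). Over 250 bp from the nearest start site lay 19 of 542 (3.51%, 2.26 to 5.41) and 229 of 681 (33.6%, 30.2 to 37.3). A summit between start sites up to 1000 bp apart is never over 500 bp from the nearer one, and in pairs up to 500 bp apart never over 250 bp, so the second difference follows in part from the definition. Of the divergent promoter summits, 125 (23.1%, 19.7 to 26.8) fell in an annotated exon.

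**Figure D2:**
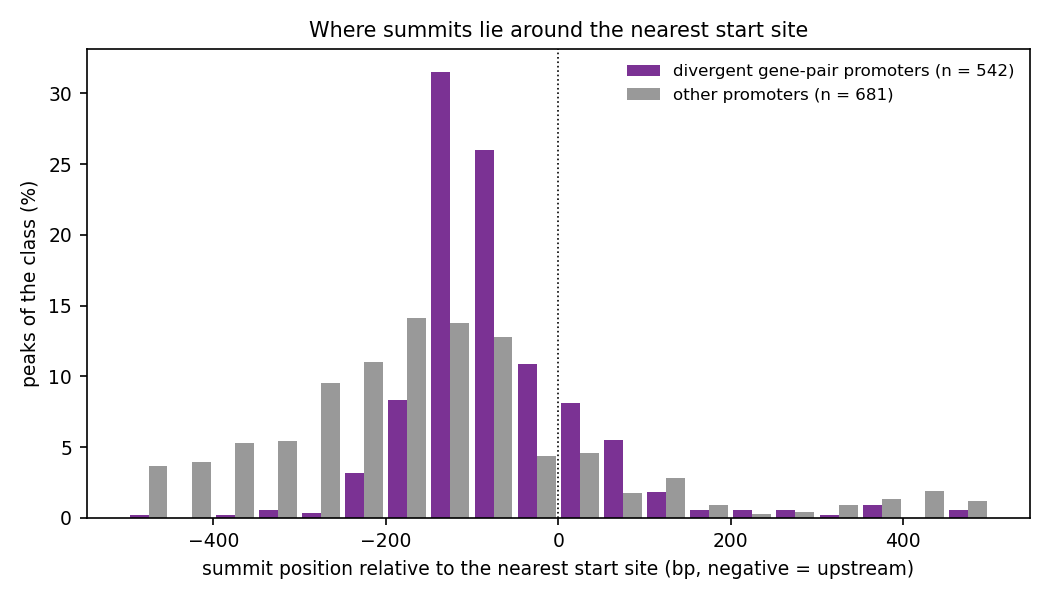
Position of the summit relative to the nearest start site (x axis, bp, negative upstream) as the share of peaks of each class in steps of 50 bp (y axis, percent). The 542 divergent promoter peaks (purple) are gathered between 150 and 50 bp upstream, with a median 90 bp upstream, and the 681 peaks at other promoters (grey) spread over 500 bp upstream, with a median 160 bp upstream.

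The difference in strength between divergent promoter peaks and other promoter peaks was small and had no stable sign. The median signal in the combined list was 121 (lowest 2.34, highest 1467) for the 542 divergent promoter peaks and 119.9 (lowest 2.49, highest 1501) for the 681 others, a log2 difference of 0.012. In the list of replicate 1 the medians were 89.8 and 89.3, a log2 difference of 0.0094. In the list of replicate 2 they were 68.5 and 70.7, a log2 difference of -0.045, and the SD of the difference between the replicates was 0.039 (n = 2). Peaks away from promoters had a median of 92.1 in the combined list. Of the 99 arm peaks among the 100 strongest of the combined list, 30 lay at divergent promoters, 35 at other promoters and 34 outside promoters. Over all 2772 arm peaks these classes held 542, 681 and 1549. Divergent promoter peaks were thus 30.3% of the strongest and 19.6% of all. Other promoter peaks, with 35 of 99 and 681 of 2772, were likewise a larger part of the strongest than of all.

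Replicate support differed between the classes of promoter by less than counting error. Both replicate lists contained 291 of 542 divergent promoter peaks (53.7%, 49.5 to 57.8) and 374 of 681 others (54.9%, 51.2 to 58.6), counting an overlap of 1 bp or more. Replicate 1 alone contained 96 of the divergent promoter peaks, replicate 2 alone 53 and neither list 102. The peaks in both lists had a median combined signal of 178, those in replicate 1 alone 97.6, those in replicate 2 alone 94.1 and those in neither 75.5, so support from both lists went with signal. Where both lists held the peak, the signal was higher in replicate 1 for 255 of 291, with a median log2 ratio of replicate 1 to replicate 2 of 0.42 (SD 0.38 across peaks). At other promoters that median was 0.35 (SD 0.35 across 374 peaks). The scale of a replicate was not set against the other, so this ratio says nothing about the amount bound.

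The peak of mRpL41 and CG8079 was the strongest at a divergent promoter. It lay at 2R 15217606 to 15217902 with a signal of 1467 in the combined list, 864 in replicate 1 and 609 in replicate 2. mRpL41 (FBgn0034001) encodes a protein of the mitochondrial ribosome, and the summit was 143 bp upstream of its start site with 762 bp between the genes. The next was that of Ugalt (FBgn0024994), a UDP-galactose transporter, and eIF2Bbeta (FBgn0024996), a subunit of the exchange factor that recharges initiation factor eIF2. It lay at X 2703742 to 2704019 with signals of 1221 in the combined list, 754 in replicate 1 and 471 in replicate 2, in a gap of 719 bp and 40.0 bp upstream of the Ugalt start. CG7601 and CIA30, an assembly factor of respiratory complex I, had signals of 1212, 670.1 and 559 in the same order of lists, at 3R 29736714 to 29736984. These 3 peaks were high in both replicates.

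The pairs with any of the 542 peaks held 12 genes of mitochondrial ribosomal proteins. Genes of this group were nearest gene or partner at 4 of the 25 strongest peaks found in both replicate lists. Besides mRpL41 these were mRpS10 with the arginine methyltransferase gene Art3 (signal 1127, with 600.04 in replicate 1 and 528 in replicate 2), mRpS23 with CenG1A, which encodes an Arf GTPase-activating protein (1004, 606 and 404), and mRpL23 with CG9004 (769, 472 and 300.04). PNPase, a mitochondrial RNA-degrading enzyme, shared its promoter with Gprk2, a kinase of G protein-coupled receptors, at a signal of 1008 (558 in replicate 1 and 441 in replicate 2). The summit at PNPase was 80.0 bp downstream of its start, and 17 of the 25 summits lay between the start sites.

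Tcs5, a kinase needed for a tRNA modification, and CHMP2B, a subunit of the membrane-remodelling complex ESCRT-III, shared a peak of 969, with 605 in replicate 1 and 361 in replicate 2. Chro, which encodes a chromodomain protein, and Ssl1, a subunit of the general transcription factor TFIIH, had 913, with 531 and 385, and brm, the ATPase of the SWI/SNF remodeller, and the Golgi GTPase gene Arl1 had 628, with 375 and 262. All 3 of these were higher in replicate 1, as were the 25 strongest in all.

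Further pairs among the 25 had signals between 539.9 and 872. CG13390 and CG17294 had 872, the receptor tyrosine kinase adaptor gene Shc and the tubulin acetyltransferase gene Atat 722, CG9147 and the F-box gene Fbw5 683, and SLIRP2 and Mkk4, a MAP kinase kinase of the JNK pathway, 680.3. CG8320 and the peroxisome gene Pex11ab had 649, Mnat9 and CG1792 623, tank and CG12194 600.4, and Elp5, a subunit of Elongator, and CG1275 592. The peak of fws, a subunit of the Golgi COG complex, and Lamtor3, a subunit of the lysosomal Ragulator, had 588. CG3552 and CG3437 had 586, CG8360 and CG8372 566, CG5098 and CG5757 556, DUBAI and Tmem18 540.1, and Pal1 and Pdrg1 539.9. The summits of the 25 lay 14 to 170 bp from the nearest start site, with a median of 103 bp, and 20 of them lay 60 to 140 bp from it.

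**Figure D3:**
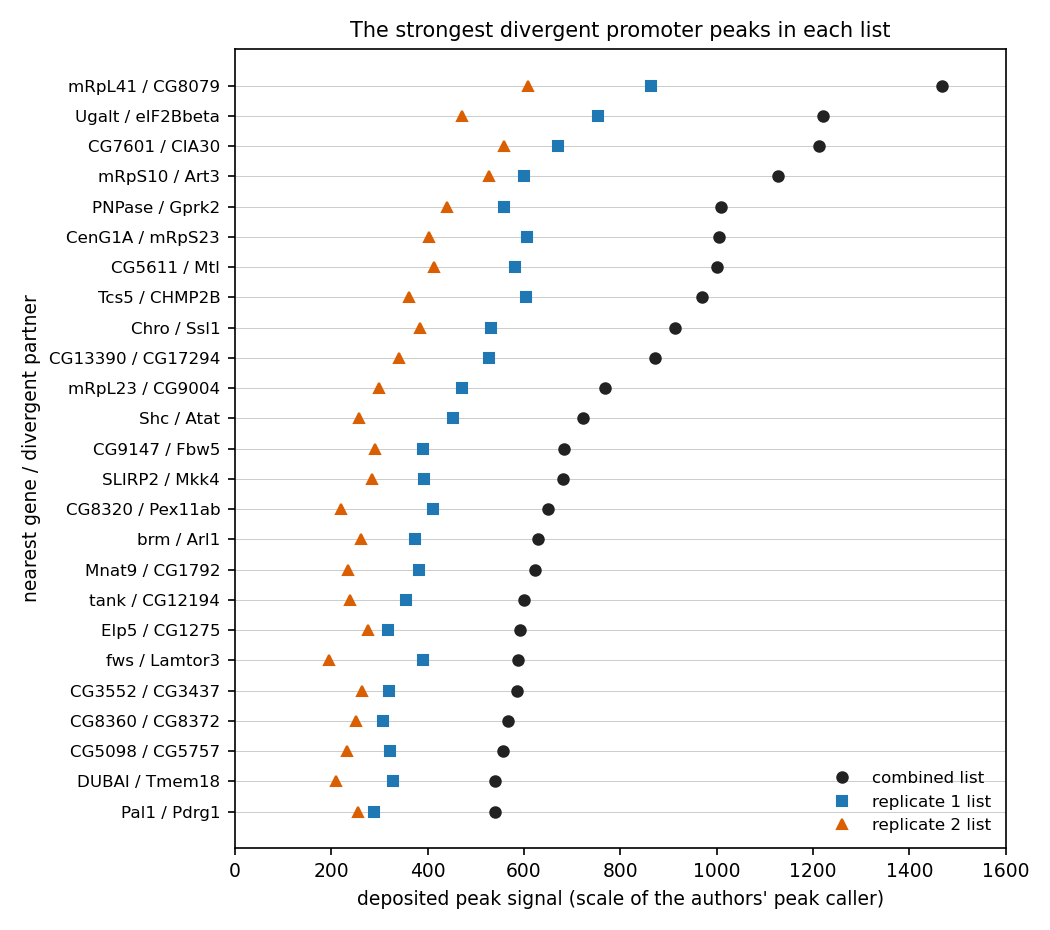
Deposited peak signal (x axis, scale of the authors' peak caller) of the 25 strongest divergent promoter peaks that both replicate lists contain, 1 row per gene pair (y axis, nearest gene and divergent partner). Circles are the combined list, squares replicate 1 and triangles replicate 2; in all 25 pairs replicate 1 is above replicate 2, and the combined values run from 539.9 to 1467.

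A pair seldom had more than 1 peak. Of 506 pairs, 472 had 1, 32 had 2 and 2 had 3. At Ank2, which encodes an ankyrin, and Mcad, a medium-chain acyl-CoA dehydrogenase of fatty acid oxidation, summits at 3L 7718687, 7719024 and 7719224 had signals of 130.8, 95.4 and 26.6 in a gap of 955 bp. At slv and sut1, both for sugar transporters, the summits at 2R 8082288, 8082777 and 8082981 had signals of 199.3, 80.6 and 8.54. In both pairs the weakest peak overlapped a stronger one, as did 52 of the 542 peaks with some other listed peak. Such a peak takes the replicate signal of its stronger neighbour, as with the peak of signal 2.82 at CG8132 and RpL34b.

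By chromosome arm, divergent promoters held 62 of 206 promoter peaks on X (30.1%, 24.2 to 36.7). They held 114 of 247 on 2L (46.2%, 40.04 to 52.4), 109 of 249 on 2R (43.8%, 37.8 to 49.99), 124 of 242 on 3L (51.2%, 45.0 to 57.5) and 133 of 276 on 3R (48.2%, 42.4 to 54.1). For this share the interval of X lay below those of the 4 large autosomal arms. The share of all promoters on each arm that are divergent is not given beside it, so it does not show rarer binding at divergent promoters of X. Of the divergent pairs on X, 57 of 402 had a peak (14.2%, 11.1 to 17.9), against 18.7% to 22.4% of pairs on these autosomal arms. Counted by pair, the interval of X overlapped those of 2R (15.6 to 22.2) and 3R (15.97 to 21.9), and barely that of 2L (17.89 to 24.98). It lay below that of 3L (19.1 to 26.2). Chromosome 4 had 0 of 11 pairs with a peak, which allows a share of up to 25.9% by the Wilson interval.

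Of all genes in a divergent pair, 1011 of 5052 (20.0%) belonged to a pair with a peak. The highest share among the groups examined was that of cytoplasmic ribosomal protein genes, at 33 of 55 (60%, 46.8 to 71.9). Those with no divergent partner had a summit near a start site at 18 of 37 (48.6%), against 6.31% of all unpaired genes. RpL32 with CG7943 had a signal of 341 (192 in replicate 1 and 152 in replicate 2), RpS27 with the nuclear pore gene Nup37 312 (209 and 103), and RpL7 with Ripalpha 305 (190.3 and 116).

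The other groups lay closer to the share of all genes, most with wide intervals. Vesicle transport genes had 15 of 44 (34.1%, 21.9 to 48.9) and translation initiation factors 7 of 21 (33.3%, 17.2 to 54.6). General transcription genes, with Mediator subunits among them, had 14 of 42 (33.3%, 21.01 to 48.4). Mitochondrial ribosomal protein genes had 12 of 58 (20.7%, 12.3 to 32.8), so that this group, with 4 of the strongest peaks, had a peak about as often as all genes. Oxidative phosphorylation genes had 11 of 46 (23.9%), aminoacyl-tRNA synthetases 6 of 23 (26.1%), RNA polymerase subunits 5 of 19 (26.3%), splicing factors 5 of 27 (18.5%), nuclear pore genes 4 of 18 (22.2%), replication genes 5 of 25 (20.0%) and mitochondrial import genes 1 of 7 (14.3%). Proteasome subunits had 2 of 26 (7.69%, 2.14 to 24.1), which were Rpn3 with a signal of 147 and Rpn6 with 75.3. Polycomb and Trithorax genes had 5 of 18 (27.8%) and insulator protein genes 4 of 13 (30.8%).

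Strong peaks in these groups included alphaCOP, a coat subunit of Golgi vesicles, with CG13919 (signal 515, with 364 in replicate 1 and 156 in replicate 2), and the small DNA polymerase delta subunit gene PolD2 with CG13933 (411, 241 and 167). GluProRS, which charges a pair of tRNAs, shared a peak of 316 with AP-1sigma, a clathrin adaptor subunit. The complex I subunit gene ND-ASHI shared a peak of 299 with the fumarase gene Fum1. The insulator cofactor gene Cp190 with CG4338 had 274, and the cohesin regulator gene pds5 with Mppe had 537. SNRPG, a core protein of the spliceosome's small ribonucleoproteins, shared a peak of 211.99 with mthl1 (149.03 in replicate 1 and 61.02 in replicate 2), and the RNA polymerase subunit gene Polr2H one of 200.2 with CG11247 (103.3 and 97.01). The single peak of the mitochondrial import group, at Tom7 and CG8229, had 69.9 and was listed in replicate 2 alone. Su(z)12 with Pfdn6 had 212 and E(z) with Cnep1r2 156, both genes of the Polycomb complex that methylates histone H3. Su(z)12 was listed in replicate 2 alone and E(z) in replicate 1 alone.

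Few of the developmental and tissue-restricted genes examined were in a divergent pair. None of 34 Hox and segmentation genes was in a pair, and 3 of them had a summit near a start site. Of 231 chemosensory receptor and odorant-binding protein genes 37 were in a pair, of which 1 had a peak (2.70%, 0.479 to 13.8), Gr32a with Idua at a signal of 58.1. Of 96 cuticle protein genes 12 were in a pair, and 0 of these had a peak, which allows a share of up to 24.2%. By comparison, 36.2% of all protein-coding genes were in a divergent pair.

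In 11 pairs with a peak both genes belonged to the groups examined. This count has no share over all divergent pairs beside it, so it does not show whether such pairs had a peak more often. Chro/Ssl1 and brm/Arl1 were given above. RpL28 shared a peak of 183 with the initiation factor gene eIF1, RpL9 one of 128 with Nup154, and RpL13 one of 147 with Dref, whose product binds the DNA replication-related element. Mcm2, part of the replicative helicase, and RPA1, which binds single-stranded DNA, shared a peak of 79.1 that was in neither replicate list. The others were RpS27/Nup37 (312), LSm1/Xpd (122), ATPsynCF6/Sec13 (99.4), eIF2Balpha/Vps13B (89.0) and Exo84/Vps2 (73.5).

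Motifs were searched on both strands within 100 bp on each side of the summit, with any overlap between motifs allowed. Of 15 motifs, 10 were more frequent at divergent promoter summits than at other promoter summits, with 10 in replicate 1 and 8 in replicate 2. Several of the 10 had overlapping intervals, and some motifs share letters, so this count shows no general excess of motifs. The TATA box letters TATAAA were in 43.9% (39.8 to 48.1) of divergent promoter windows and in 33.2% (29.8 to 36.8) of other promoter windows. At peaks outside promoters they were in 33.2% (30.9 to 35.6). These letters were counted at any position in the window, so they do not show a placed TATA box. Mean GC content of the windows was 34.7% at divergent promoter summits and 36.8% at other promoter summits. TATCGATA, the DNA replication-related element (DRE), was found in 8.67% (6.58 to 11.3) and 3.67% (2.50 to 5.36), and the BEAF-32 core CGATA, which lies within it, in 41.0% (36.9 to 45.1) and 29.4% (26.1 to 32.9). The promoter element Ohler 7, searched as CATCNCTA, was in 9.41% (7.23 to 12.2) and 5.14% (3.72 to 7.06), and the E-box CAGCTG in 13.1% (10.52 to 16.2) and 8.37% (6.52 to 10.7). GAGAG, the core bound by GAGA factor, went the other way, with 11.99% (9.52 to 14.999) and 24.7% (21.6 to 28.04).

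These motif differences between promoter classes were mostly not seen between divergent pairs with and without a peak. At the midpoint of the start sites, the DNA replication-related element was in 7.31% of 506 pairs with a peak and in 8.90% of 2134 pairs without. CGATA was in 37.0% and 42.7%, GAGAG in 14.4% and 14.7%, and CAGCTG in 12.5% and 12.9%. The TATA box letters were in 46.4% of pairs with a peak (42.1 to 50.8) and in 38.6% of those without (36.5 to 40.7). AAAATA was in 69.0% (64.8 to 72.8) and 59.3% (57.2 to 61.3), and ACAGTG in 14.4% (11.6 to 17.8) and 9.51% (8.34 to 10.8). At the summits AAAATA was in 61.8% (57.6 to 65.8) of divergent promoter windows and 58.3% (54.6 to 61.9) of other promoter windows, and ACAGTG in 18.3% (15.2 to 21.7) and 21.7% (18.8 to 24.98). ACAGTG was also lower at divergent promoters in each replicate list, with 16.8% and 24.1% in replicate 1 and 16.9% and 21.2% in replicate 2. These 2 motifs had been chosen from earlier results over all peaks of these data, so they are no independent observation. In windows of the same length centred 100 bp upstream of all 19630 start sites, TATCGATA was in 6.21%, CGATA in 36.6%, GAGAG in 25.3%, CAGCTG in 11.997%, TATAAA in 33.5%, CATCNCTA in 3.27%, AAAATA in 46.4% and ACAGTG in 9.39%.

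**Figure D4:**
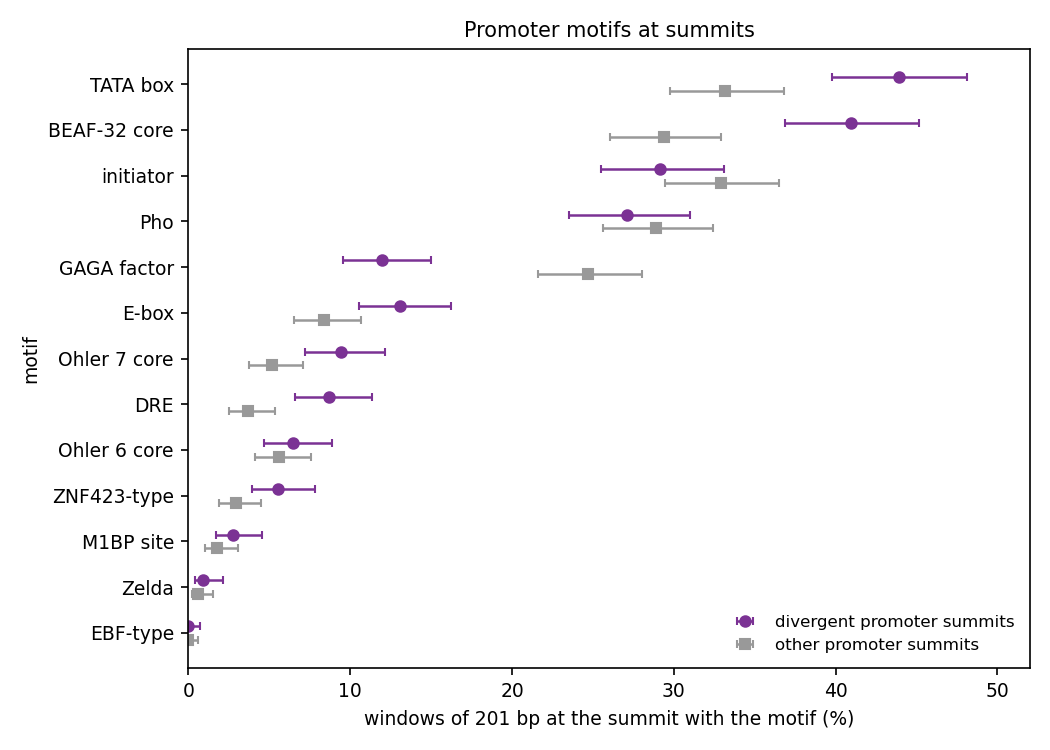
Share of summit windows (100 bp on each side) that hold each named promoter motif (x axis, percent; motifs on the y axis), for divergent promoter summits (purple circles) above other promoter summits (grey squares), with Wilson 95% intervals. The TATA box letters at any position, the BEAF-32 core, Ohler 7 and DRE, the DNA replication-related element, are higher at divergent promoters. The GAGA factor core is lower (11.99% against 24.7%).

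The remaining motifs were as follows. M1BP's site GGTCACACT was in 2.77% of divergent promoter windows and 1.76% of other promoter windows, the Ohler 6 core GTATTTTT in 6.46% and 5.58%, and the initiator letters TCAGT in 29.2% and 32.9%. The Pho core GCCAT was in 27.1% and 28.9% and the Zelda site CAGGTAG in 0.923% and 0.587%. The letters GCACCC, from sites of vertebrate ZNF423, were in 5.54% (3.904 to 7.79) and 2.94% (1.91 to 4.49), beside 3.95% of all start site windows. The EBF-type palindrome was in 0 of 542, which allows a share of up to 0.704% by the Wilson interval, and in 0 of 681.

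Among the divergent promoter peaks themselves, base composition went with strength. Mean GC content in the central 61 bp was 27.5% at the 135 strongest peaks, 36.03% at the 135 weakest and 31.8% over all 542. It was 33.9% at other promoter summits and 38.7% at all start sites. At the midpoints it was 30.5% for pairs with a peak and 34.2% for pairs without. TATCGATA was in 3.70% (1.59 to 8.38) of the 135 strongest and 11.9% (7.43 to 18.4) of the 135 weakest, with overlapping intervals. AAAATA, itself without G or C, was in 67.4% and 52.6%.

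The sequence CTACGCC, shown above beside 6 of the strongest summits, was within 150 bp of the summit at 26 of 542 divergent promoter peaks (4.80%, 3.29 to 6.94). It was in 8 of the 25 strongest (32%, 17.2 to 51.6), in 14 of the 135 strongest (10.4%, 6.28 to 16.7) and in 7 of the 135 weakest (5.19%, 2.53 to 10.3). The sequence was noticed in the strongest peaks, and the 8 are among the 14. The shares of the strongest peaks thus restate that choice in part and show no link of the sequence with strength. At other promoter peaks it was in 2.64% of windows (1.68 to 4.14), with 6.47% (3.65 to 11.2) of the 170 strongest, and at peaks outside promoters in 2.13%. At the midpoints of start sites, where windows are not centred on a summit, 13 of 506 pairs with a peak had it (2.57%, 1.51 to 4.35). The 2134 pairs without a peak had it at 14 (0.656%, 0.391 to 1.10), and all start sites at 1.36%. In the list of replicate 1 the shares were 5.15% at divergent promoters and 3.80% at others, and in that of replicate 2 they were 5.43% and 3.26%. With the first 6 letters alone the difference between promoter classes turned, at 7.56% and 8.08%, and with CTACGCCC it was 2.77% and 1.62%.

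Matches of CTACGCC lay mostly to one side of the summit. Of 27 matches at divergent promoter peaks, 23 began past the summit along their own strand (85.2%), and 11 began 50 to 100 bp past it, against 3 at 50 to 100 bp before it. At other promoter peaks 16 of 19 began past the summit and 12 at 50 to 100 bp, so this position was not confined to divergent promoters. At the midpoints of pairs without a peak, 2 of 14 began past the midpoint. CCCC stood within 30 bases before 13 of the 27 matches at divergent promoter peaks, and before 2 of the 14 at pairs without a peak. It stood before 10 of the 19 at other promoter peaks and 12 of the 33 outside promoters, so it was not confined to divergent promoters.

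The zone of 50 to 100 bp was set after the sequence had been noticed there at the strongest peaks, so the signals of the peaks in it restate that choice. Of the 11 such peaks, 7 were among the 25 strongest, and the other 4 had signals of 310.2 (PIG-G), 199.3 (slv), 159.7 (tamo) and 122 (CG9662). Of the 11 matches, 7 lay between the start sites and 6 on the strand of the nearest gene, so no orientation to the gene stood out. The 7 among the 25 strongest were Ugalt, CG5611, Tcs5, mRpL23, CG8320, fws and CG3552. A further strong peak, CG5098 with a signal of 556, had a match 97 bp before the summit.

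At the limits of the rule, the peaks just inside 500 bp were CG42324/CG32267 (490.0 bp, signal 83.3), CG15465/CG32767 (456 bp, 64.0) and mats/Nop56 (455 bp, 84.7). Just outside were CG10383/CG10338 (532 bp, 101.5), Marf/swa (534 bp, 211) and Rab14/l(2)34Fd (548 bp, 118). With the widest gaps inside 1000 bp were RpS7/Anp (1000 bp, 109.8), CG15465/CG32767 (991 bp) and Pax/Lectin-galC1 (977 bp, 176), and just outside were Eno/Rrp40 (1015 bp, 403), Nrx-1/CG5377 (1024 bp, 157) and qtc/Rpn11 (1025 bp, 105). At the limit of 500 bp the 3 peaks outside had higher signals than the 3 inside, and at the limit of 1000 bp the signals of both sides overlapped.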

How the data were processed

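The authors deposited 8 peak lists on dm6. Per the deposited description of the samples, the lists of the series were derived from both replicates with a control, and each sample's lists from its own replicate with that control. Which aligner and which peak caller were used is not given in the sources used here. The authors' deposited signal per peak is on a scale that is not stated, and it was compared within a list only. The deposited −log10 of the global IDR served for an alternative of 0.001. Sonicated fragments were 200 to 800 bp long, per the labels. Per-replicate columns of the ranked lists (8) and the control reads were not used here.

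Transcript starts of 13968 protein-coding genes (19630 on the arms) were taken from Ensembl release 115, and the genome was RefSeq's Release 6. Of the 2846 peaks of the combined list, 2772 were on the arms, as were 1759 of 1833 for replicate 1 and 1670 of 1680 for replicate 2. Nearest start sites, gaps and summit positions were computed from these. A replicate's signal for a peak is that of the strongest overlapping peak in its list. Coordinates are 1-based.

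The peaks, the 18 gene lists (by symbol) and the 15 motifs were chosen with earlier results of these data known, and the single start site pairs and the sequence CTACGCC after the values were seen. Named were the 25 strongest peaks in both replicate lists, those nearest the limits, the strongest of each gene list, pairs with 3 peaks, and pairs with both genes in lists. The signal of 1 of these pairs is not reported in the text. Shares have Wilson 95% intervals, and no test was run. The assignment and the motif search recovered all planted cases in simulated data. Software was Python 3.11.15, numpy 2.4.6, pandas 2.3.3, scipy 1.17.1 and matplotlib 3.10.9.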

Additional observations from a re-analysis of the deposited data

How the results depend on the processing

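Of 82 values recomputed under 13 other settings and 1 chosen later, 53 stayed within the counting interval of the reported value, within 1.5 times for counts, or within the SD between replicates for the log2 signal difference. The number of divergent promoter peaks was 308 at an IDR of 0.001 or less and 350 to 388 with either replicate alone. Their share of promoter peaks was 53.6% with promoters of 250 bp, 38.9% with 1000 bp, 34.3% with gaps up to 500 bp, 53.6% with gaps up to 2000 bp and 49.3% with 1 start site per gene. The share of divergent pairs with a peak was 11.1% at an IDR of 0.001, 12.6% to 14.2% with either replicate alone and 17.3% among pairs whose genes have 1 start site each. The share of genes with no divergent partner that had a peak was 3.57% at an IDR of 0.001, 4.41% with 250 bp, 8.25% with 1000 bp, 7.10% with gaps up to 500 bp, 5.53% with 1 start site per gene and 4.50% to 4.52% with either replicate alone. It was below the share of divergent pairs in each of these, although shares of genes and of pairs are in unlike units. The log2 signal difference had no stable sign, at -0.033 in the conservative list, -0.076 at an IDR of 0.001, -0.028 with 250 bp, 0.10 with gaps up to 500 bp, -0.066 with gaps up to 2000 bp, 0.065 with 1 start site per gene and -0.045 to 0.0094 with either replicate alone. Summits between the start sites were 74.7% with 1000 bp, 73.2% with 1 start site per gene and 82.6% to 84.8% with either replicate alone. Both replicate lists contained 87.3% of the peaks at an IDR of 0.001, a threshold that itself rests on their agreement. The causes of the other shifts were not tested. Of 180 single motif shares, 149 stayed within the interval of the reported share. The pairs with single start sites and the other lengths of CTACGCC (7.56% with 6 letters and 2.77% with 8) were chosen after seeing the data. No paired analysis was possible because there was 1 group. Read depth is unknown, so weak or missing peaks cannot be told apart from shallow coverage.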
